A study of Homo sapiens with 32 samples.

Results

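The genes described here are 10 named genes of the integrated stress response, the transcription factor ATF4 and 9 genes known as its targets: ATF5, DDIT3, DDIT4, CHAC1, TRIB3, SESN2, ASNS, PSAT1 and SLC7A11. They were taken by symbol, with no threshold on a measured value, and all 10 were found among the 60662 Ensembl gene IDs counted in each of 32 RNA sequencing libraries. The libraries were made with poly(A) selection and strand information from HEK293T cells, an established line from human embryonic kidney with the SV40 large T antigen. The study asked what the removal of N6-methyladenosine (m6A), a methyl mark on messenger RNA, does to transcript levels. It used STM2457, an inhibitor of the m6A-writing enzyme METTL3, and a knockdown of YTHDF2, a protein that binds m6A and recruits the RNA decay machinery.

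In the integrated stress response, kinases that sense amino acid shortage, misfolded protein, viral RNA or heme deficiency phosphorylate the translation factor eIF2, which lowers protein synthesis while ATF4 messenger RNA, through upstream open reading frames, is translated more. ATF4 protein pairs with other basic leucine zipper (bZIP) factors on composite sites in DNA and turns on genes for amino acid uptake and synthesis, for glutathione metabolism, for brakes on the growth kinase TORC1 and, under lasting stress, for cell death. In cultured cell lines this program is a common readout of amino acid, ER and mitochondrial stress. Only messenger RNA was measured here, so neither eIF2 phosphorylation nor ATF4 protein is known for these cells.

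There were 3 experiments, analysed separately. In the knockdown experiment, cells received STM2457 with YTHDF2 siRNA, DMSO with YTHDF2 siRNA, STM2457 without siRNA or DMSO without siRNA, with 3 libraries in each group. STM2457 was used at 20 µM in 0.2% DMSO and the siRNA at 20 nM, and the harvest came 48 h after transfection, after 6 h of STM2457 or DMSO. The second experiment compared STM2457 with DMSO after 9 h, with 4 libraries each. In the emetine experiment, cells received STM2457 with emetine, DMSO with emetine, STM2457 with DMSO or DMSO with DMSO, again with 3 libraries each. Emetine, which blocks translation elongation, was added at 1.8 µM after 4 h and left on for 2 h. The labels do not say whether the libraries without siRNA received a control siRNA, so the knockdown contrasts may include an effect of transfection. Nothing says that replicates were separate cultures, and p-values then measure the spread between these libraries, which may be technical.

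Gene counts per library totalled 37694945 to 42303951 in the knockdown experiment, 22510323 to 34677704 in the 9 h experiment and 21781514 to 28053353 in the emetine experiment. Mitochondrial transcripts took 3.82% to 6.69%, 1.32% to 2.44% and 1.958% to 3.55% of the counts in these 3 experiments, and the part of that difference in the results was not tested. YTHDF2 messenger RNA averaged 43.3 ± 1.14 CPM (counts scaled to a fixed library total, SD, n = 3) in DMSO with siRNA and 178 ± 3.91 CPM in DMSO without it, a log2 change of -2.04 (adjusted p = 8.25e-15). YTHDF2 was itself higher with STM2457, by 0.83 on the log2 scale with siRNA and by 1.79 without it. METTL3, the target of STM2457, is inhibited as a protein, so its RNA does not check the drug. The HEK293T markers summed to 761 to 1396 CPM, with VIM at 430 to 885 CPM and PAX2 at 2.85 to 6.07 CPM, and none was at 0. The 4 hepatocyte markers summed to at most 0.436 CPM, and of the blood markers PTPRC and HBB were each at 0 in 31 libraries. Fibroblast markers summed to 18.1 to 29.4 CPM, mostly COL1A1, with COL1A2 at 0 in 27 libraries, and keratinocyte markers to 20.0 to 40.4 CPM, almost entirely KRT10, with KRT1 at 0 in 31. KRT10 was higher with STM2457 in the knockdown experiment, by 0.41 on the log2 scale without siRNA, and lower with siRNA, by 0.28 in DMSO, and COL3A1 was lower with siRNA, by 1.09 in DMSO, and with emetine, by 0.52. The part of these genes in the members' results was not tested.

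ATF4 binds with C/EBP partners to a composite DNA element, and the promoters of the members that hold its core letters are shown because this element is the known contact of ATF4 with DNA. The motif searched was TGATGNAA on both strands, within 250 bases before each RefSeq start (build GRCh38.p14). RefSeq rows were available for 9 of the 10 members, with 16 starts in all, and the motif was found in 2 members, ASNS and CHAC1. Over all promoters, 1104 of 35116 windows held it, or 3.14%. In the sequences below the capitals mark the match, written 5′ to 3′ on the gene's strand. The ASNS window is chr7:97872409-97872658 on the minus strand and its match starts 68 bases before the start. The second RefSeq start of ASNS had no match. The CHAC1 window is chr15:40953221-40953470 on the plus strand, and its match lies 209 bases before the start and reads as the reverse complement of the motif. The GENCODE 29 gene bounds reach further upstream, to chr15:40952962 for CHAC1 and chr7:97872542 for ASNS, so both matches lie inside them.
ASNS: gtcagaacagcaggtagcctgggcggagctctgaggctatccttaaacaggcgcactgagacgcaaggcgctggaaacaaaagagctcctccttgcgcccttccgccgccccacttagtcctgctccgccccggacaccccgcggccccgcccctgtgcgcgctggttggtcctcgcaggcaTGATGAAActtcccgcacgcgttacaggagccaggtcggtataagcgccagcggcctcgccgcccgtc
CHAC1: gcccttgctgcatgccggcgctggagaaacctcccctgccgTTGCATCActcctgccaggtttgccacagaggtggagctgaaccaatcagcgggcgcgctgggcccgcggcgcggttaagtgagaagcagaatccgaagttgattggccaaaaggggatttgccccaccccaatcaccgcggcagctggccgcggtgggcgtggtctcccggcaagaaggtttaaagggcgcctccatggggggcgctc
A match describes letters only, and the absence of one in the other windows says nothing about ATF4 binding there.

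METTL3 methylates adenosine within a short consensus whose most used form is GGACT in DNA letters, so the coding sequences of the members were searched for it, on the transcript strand, in 1 GENCODE 29 transcript for each gene. GGACT occurred in the coding sequence of 7 of the 10 members, against 72.3% of 19501 protein coding genes, and at a median of 0.923 per kb in the members against 0.972 per kb in all genes, so the members did not stand above the other genes in it. Of the 4 members that were higher in every STM2457 comparison below, TRIB3 had 3 matches, DDIT4 had 2, and CHAC1 and SLC7A11 had none in the coding sequence. After the coding sequence, in the same transcripts, SLC7A11 had 3 matches, and DDIT4, CHAC1 and TRIB3 had 1 each. The share over all genes was taken for the coding sequence only. The windows of DDIT4 and TRIB3 are shown with GGACT in capitals, named by the position of its first base in the coding sequence. They lie at chr10:72274364-72274384 and chr10:72275024-72275044 for DDIT4 and at chr20:396217-396237, chr20:396391-396411 and chr20:396620-396640 for TRIB3, all on the plus strand of GRCh38.
DDIT4, position 156: gagagctcGGACTgcgagtcc
DDIT4, position 543: ctgcgcctGGACTcacgactc
TRIB3, position 612: aacctggaGGACTcctgcgtg
TRIB3, position 786: cccttccaGGACTcggagcct
TRIB3, position 1015: tccctgatGGACTggggctgg
Methylation itself was not measured in these libraries, so none of these sites is known to carry m6A here. At least 1 ATG stood before the coding sequence in 7 of the 10 transcripts, against 51.8% of all genes, and ATF4 had the most, with 7 ATGs.

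In DMSO controls of the knockdown experiment, the members' levels per kb of exon ran from 162 CPM per kb for ATF4 and 129 for PSAT1 through 51.8 for DDIT4, 27.6 for SESN2, 7.03 for TRIB3, 6.02 for ATF5, 4.95 for DDIT3, 4.37 for SLC7A11 and 1.58 for CHAC1 to 0.688 for ASNS. ATF4 and PSAT1 were also the top pair in the DMSO groups of the other experiments, with 309 and 194 CPM per kb in the emetine experiment and 240 and 155 CPM per kb at 9 h. Each experiment was scaled by itself, so levels set across experiments are side by side and were not tested.

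STM2457 left 4 members higher in every one of its 5 comparisons under TMM scaling: DDIT4, CHAC1, TRIB3 and SLC7A11. Under spike-in scaling none of these 4 passed in either comparison of the knockdown experiment, while at 6 h without emetine all 4 did. SESN2 was higher in 4 of the 5, ATF4 and PSAT1 in 3, and ASNS in none. DDIT3 was lower in 2 and ATF5 in 1. The share of all genes called alike in several comparisons is not given, so these counts have no background beside them. In bulk RNA, fewer cells with a transcript and less of it in each cell cannot be told apart. The test throughout is edgeR's quasi-likelihood test across all genes with Benjamini-Hochberg adjustment, and a change is called at an adjusted p below 0.05. In the emetine experiment without emetine, 7 members rose and none fell with STM2457, where 26% of the 15817 genes tested rose and 21.9% fell. At 9 h, 6 members rose and 1 fell, against 32.2% and 32.5% of 15834 genes. Under ribosomal protein scaling all 10 members were called at 9 h, where 7514 of all genes were higher and 2422 lower. In the knockdown experiment without siRNA, 5 rose and 1 fell, against 22.9% and 22.1% of 16662 genes. With siRNA, STM2457 raised 6 and lowered none, against 15.5% and 15.4% of the genes. Under spike-in scaling 1 member was called without siRNA, the fall of DDIT3, and none with siRNA, and under ribosomal protein scaling 4 and 2 were called. With emetine STM2457 raised 6 and lowered 1, against 21.6% and 16.2%. The members' median log2 change with STM2457 lay between 0.16 and 0.31 in these 5 comparisons, and the median over all genes between -0.02 and 0.01.

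YTHDF2 siRNA and emetine moved the members in both directions. In DMSO, siRNA raised 4 members and lowered 4, against 33.1% and 29.3% of all genes, and under STM2457 it also raised 4 and lowered 4, against 29.8% and 30.1%, so these shares are near the background. ATF4, CHAC1 and SESN2 rose, and ATF5, DDIT4, PSAT1 and SLC7A11 fell, with siRNA in both settings. Emetine without STM2457 raised 3 members and lowered 7, against 33.9% and 28.3% of all genes, and under STM2457 it raised 3 and lowered 6, against 30.4% and 29.4%. ATF4 and DDIT3 rose, and ATF5, DDIT4, CHAC1, ASNS, PSAT1 and SLC7A11 fell, with emetine in both settings. For siRNA and for emetine, the share of all genes called alike in both settings is not given. Agreement between settings is therefore not set against a background. Comparisons that share a group, such as the STM2457 and emetine effects that both use the DMSO libraries, are not independent of each other.

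**Figure D1:**
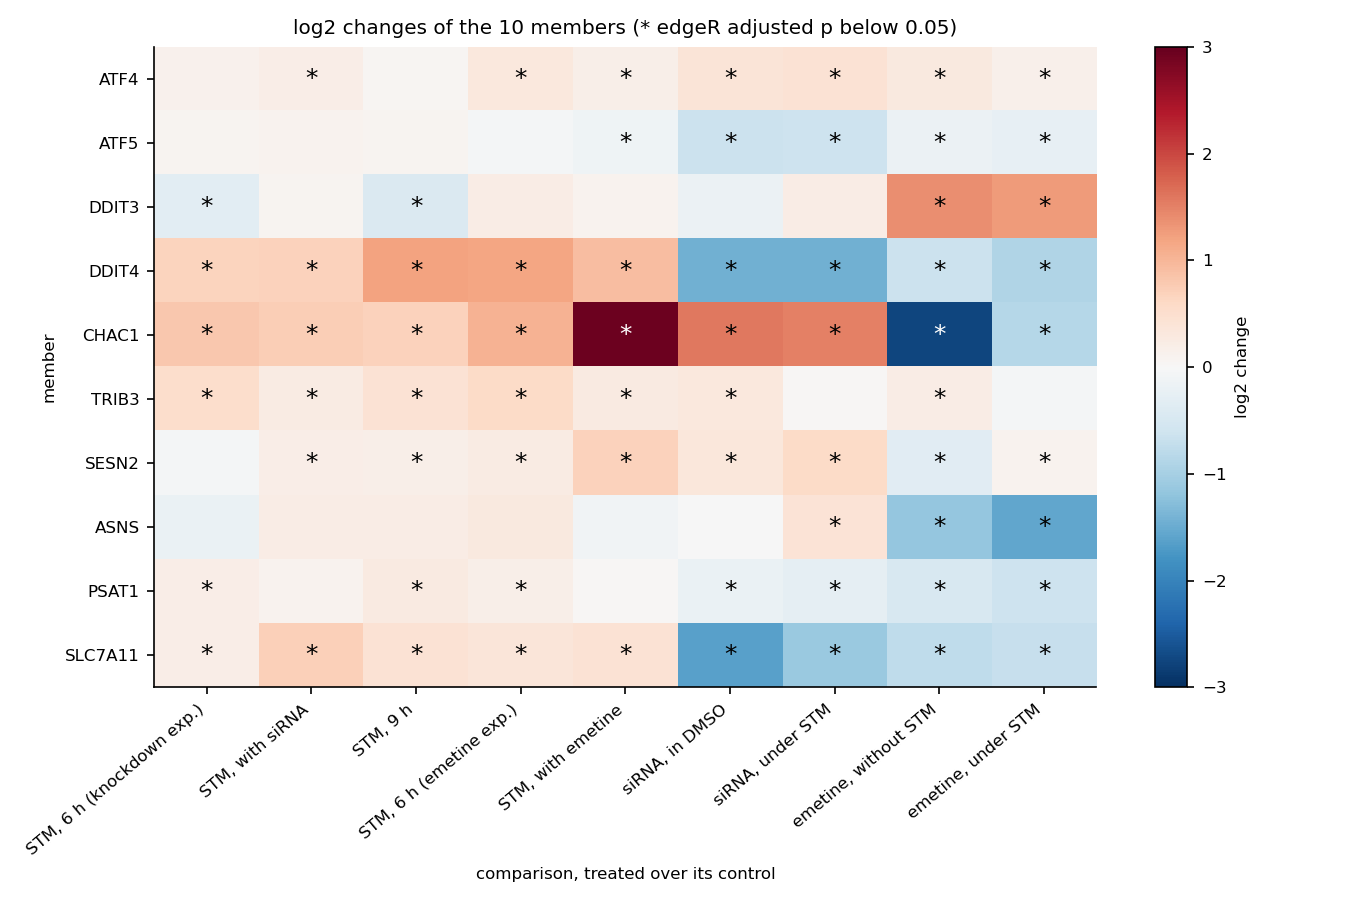
Log2 change of each of the 10 members (down the page) in each of the 9 comparisons between groups (across), as a colour from blue (lower in the treated group) to red (higher). Stars mark an edgeR adjusted p below 0.05. DDIT4, CHAC1, TRIB3 and SLC7A11 carry stars in red in all 5 STM2457 columns, and the darkest cells are CHAC1 at 2.94 for STM2457 with emetine and at -2.75 for emetine without STM2457.

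Directions depend on what is held constant. Scaling the libraries to ribosomal protein genes in place of edgeR's TMM factors moved the median of all genes by -0.26 for STM2457 without siRNA in the knockdown experiment, -0.19 with siRNA, 0.17 at 9 h, -0.17 without emetine, -0.11 with emetine, 0.44 for emetine without STM2457 and 0.50 for emetine under STM2457. Scaling to ERCC spike-in RNA, which the 9 h libraries lacked, moved it by -0.37, -0.31, -0.13 and -0.08 for the 4 STM2457 comparisons at 6 h in the same order, and by 0.49 and 0.53 for the pair of emetine comparisons. The split of calls over all genes moved with it. Under TMM, 50.9% of the calls for STM2457 without siRNA were higher, against 14.4% under ribosomal protein and 7.34% under spike-in scaling. The same shares were 50.1%, 14.2% and 5.48% with siRNA, 54.3%, 24.7% and 30.9% without emetine, and 57.1%, 27.5% and 34.4% with emetine. At 9 h, 49.8% of the calls were higher under TMM and 75.6% under ribosomal protein scaling. For emetine they were 54.5%, 96.6% and 98.1% without STM2457 and 50.8%, 97.0% and 98.1% under it. Values below are relative to the TMM baseline, and called changes whose sign turns under another scaling are given where they are described. For siRNA the median of all genes moved by at most 0.08, but with spike-in scaling 4 members in place of 8 were called in DMSO and 6 in place of 8 under STM2457.

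**Figure D2:**
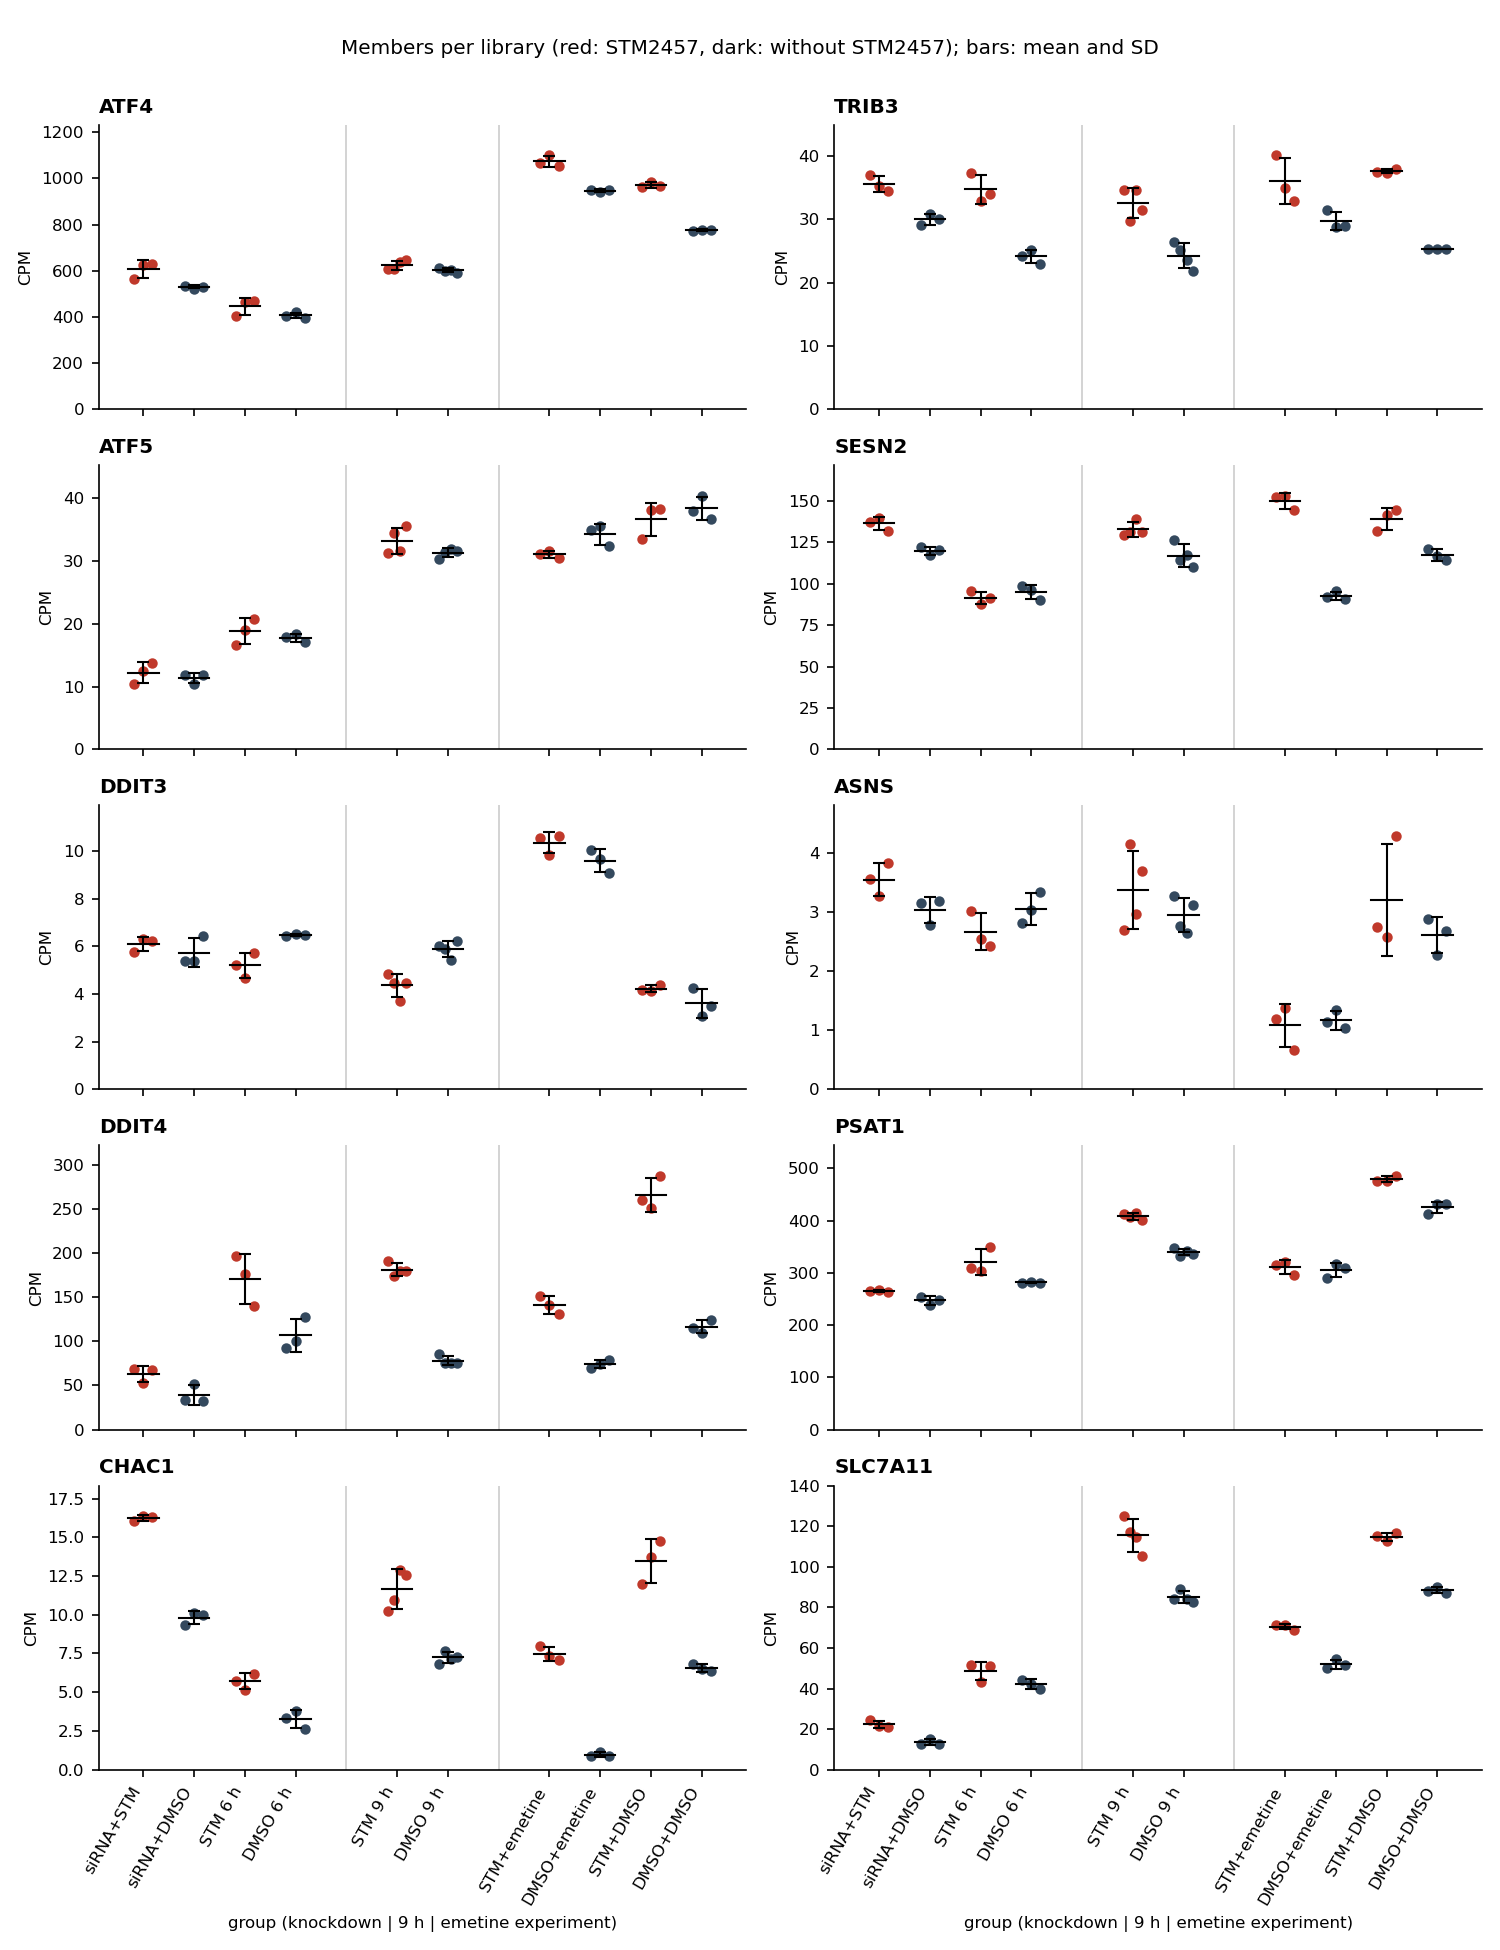
Level of each member in every library, in CPM on linear axes that start at 0, by group, with the knockdown, 9 h and emetine experiments from left to right. Red points are libraries with STM2457, dark points are libraries without it, and bars give the mean and SD. CHAC1 with DMSO and emetine sits near 0 at 0.855 to 1.16 CPM, below every other group, while DDIT3 is highest in both emetine groups.

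ATF4, the central activator of the response, lies at chr22:39519695-39522685 on the plus strand (GENCODE 29, GRCh38) and shares no exon base with another gene. In the emetine experiment its level was 964, 986 and 965 CPM with STM2457, against 773, 777 and 778 CPM with DMSO. The groups stood apart, with a log2 change of 0.32 (SE 0.03, adjusted p = 1.89e-10). In cells of the knockdown experiment without siRNA, STM2457 gave 404, 463 and 470 CPM, against 404, 420 and 395 CPM with DMSO. These libraries overlapped, and the change of 0.13 did not pass (adjusted p = 0.0865), although it was 0.18 (adjusted p = 0.018) without STM2457 replicate 1. At 9 h the groups overlapped as well, at 624 ± 19.9 and 602 ± 8.51 CPM (SD, n = 4 each), a change of 0.05 (adjusted p = 0.153) that was 0.08 (adjusted p = 0.0365) without STM2457 9 h replicate 1. The change at 9 h was called under ribosomal protein scaling. With siRNA, ATF4 reached 606 ± 38.3 CPM with STM2457 and 530 ± 6.51 CPM with DMSO (SD, n = 3 each), a change of 0.20 that passed (adjusted p = 0.0209). It was 0.00 under ribosomal protein and -0.10 under spike-in scaling, and the call was lost (adjusted p = 0.0528 to 0.1) when any replicate of DMSO with siRNA, or replicate 2 or 3 of STM2457 with siRNA, was left out. siRNA itself raised ATF4 by 0.38 in DMSO (adjusted p = 2.6e-05) and by 0.44 under STM2457 (adjusted p = 5.05e-06), with no overlap of libraries. With spike-in scaling the change in DMSO was 0.41 and did not pass (adjusted p = 0.0923). Emetine raised ATF4 too, with 950, 942 and 951 CPM in DMSO with emetine against the 773 to 778 CPM of DMSO alone, a log2 change of 0.29 (adjusted p = 1.46e-09).

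ATF5, a bZIP factor related to ATF4 whose translation is also governed by upstream reading frames, lies at chr19:49928702-49933935 on the plus strand, and 21.2% of its exon bases are shared with genes on the opposite strand, NUP62 and IL4I1. NUP62 had 150783 counts over all libraries and IL4I1 788, against 25402 for ATF5. Unlike most members ATF5 did not rise in any STM2457 comparison under TMM. Under ribosomal protein scaling all 10 members were called at 9 h, ATF5 among them. Its levels with STM2457 and DMSO were 18.8 ± 2.05 and 17.8 ± 0.646 CPM in the knockdown experiment without siRNA (SD, n = 3 each), 33.2 ± 2.12 and 31.3 ± 0.7096 CPM at 9 h (n = 4 each) and 36.7 ± 2.68 and 38.4 ± 1.88 CPM without emetine (n = 3 each). At 9 h the change of 0.09 (adjusted p = 0.109) was 0.12 (adjusted p = 0.0268) without STM2457 9 h replicate 1. With emetine present STM2457 lowered it by 0.14 on the log2 scale (adjusted p = 0.049), a call lost with DESeq2 (adjusted p = 0.0739) and, at adjusted p = 0.0713 to 0.185, without any STM2457 replicate or replicate 1 or 2 of DMSO in that pair of groups. ATF5 fell with siRNA in DMSO, with 11.9, 10.4 and 11.8 CPM in siRNA libraries against 17.9, 18.3 and 17.1 CPM without siRNA. The groups did not overlap, and the change was -0.65 (SE 0.09, adjusted p = 8.96e-06). It was -0.62 under STM2457 (adjusted p = 1.51e-05). With emetine ATF5 was lower by 0.24 and 0.16 on the log2 scale with and without STM2457 under TMM, but higher by 0.26 and 0.27 under ribosomal protein scaling and by 0.30 and 0.32 under spike-in scaling. The TMM call without STM2457 was also lost without DMSO with emetine replicate 3 (adjusted p = 0.0728).

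DDIT3 encodes CHOP, the bZIP factor that ATF4 induces and that promotes cell death under lasting stress, and it lies at chr12:57516588-57521737 on the minus strand. It is a low gene here, with 6124 counts over all 32 libraries, and 31.6% of its exon bases are shared with MARS1 and MBD6 on the opposite strand and 8.03% on the same strand. MARS1 had 300753 counts and MBD6 55390, and the strand setting of the counts was not given. Where STM2457 changed DDIT3, it lowered it. At 9 h it had 4.84, 4.44, 3.71 and 4.47 CPM with STM2457, against 6.00, 5.88, 5.43 and 6.21 CPM with DMSO. All 4 STM2457 libraries lay below all 4 DMSO libraries, with a change of -0.44 (SE 0.10, adjusted p = 0.000284). After 6 h in the knockdown experiment, without siRNA, it had 5.21, 4.66 and 5.72 CPM with STM2457, against 6.42, 6.51 and 6.47 CPM with DMSO, a change of -0.32 (adjusted p = 0.0124). In the emetine experiment it was 4.23 ± 0.137 and 3.61 ± 0.607 CPM (SD, n = 3 each), a change of 0.22 in the other direction that did not pass (adjusted p = 0.149), although it was 0.34 (adjusted p = 0.0457) without DMSO with DMSO replicate 1. The largest rise of a member with emetine was that of DDIT3, which had 10.05, 9.66 and 9.08 CPM in DMSO with emetine, against 4.26, 3.07 and 3.499 CPM in DMSO alone. That is 2.65-fold, or 1.40 on the log2 scale (SE 0.11, adjusted p = 2.35e-13), and it was 1.84 and 1.89 under the other scalings. Under STM2457 the emetine change was 1.29 (adjusted p = 1.88e-12). siRNA did not change DDIT3 beyond the test in either setting (adjusted p = 0.119 in DMSO and 0.0516 under STM2457). Without DMSO with siRNA replicate 3 these became -0.27 (adjusted p = 0.0294) and a call for a rise, which was also made without STM2457 replicate 3 (0.22 to 0.29, adjusted p = 0.0184 to 0.0495). With ribosomal protein scaling the change under STM2457 was 0.32 and passed (adjusted p = 0.0198).

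DDIT4, also called REDD1, is a stress-induced inhibitor of TORC1, and it lies at chr10:72273920-72276036 on the plus strand, with 41.2% of its exon bases opposite a low antisense gene that had 190 counts over all libraries, against 119049 for DDIT4. STM2457 raised it more than 2-fold in both the 9 h and the emetine experiment. At 9 h it had 191, 174, 180 and 180 CPM with STM2457, against 85.7, 75.0, 75.6 and 75.4 CPM with DMSO. No library of one group came near the other, and the change was 1.21 (SE 0.04, adjusted p = 3.32e-18). Without emetine it had 259, 251 and 287 CPM with STM2457, against 115, 110 and 124 CPM with DMSO, a change of 1.20 (SE 0.05, adjusted p = 4.65e-20). The knockdown experiment had more spread. There DDIT4 had 196, 176 and 140 CPM with STM2457 without siRNA, against 92.04, 100.5 and 128 CPM with DMSO, a change of 0.68 (SE 0.16, adjusted p = 0.00153). With spike-in scaling that change was 0.32 and did not pass (adjusted p = 0.168), and with ribosomal protein scaling it was 0.44 (adjusted p = 0.096). With siRNA the STM2457 effect was 0.69 (adjusted p = 0.00326), and 0.49 (adjusted p = 0.0966) and 0.37 (adjusted p = 0.17) under ribosomal protein and spike-in scaling. siRNA lowered DDIT4 2.72-fold in DMSO, to 33.04, 51.9 and 32.2 CPM with siRNA against the 92.04 to 128 CPM without it, a change of -1.45 (SE 0.16, adjusted p = 3.51e-07). Under STM2457 the siRNA change was -1.44 (adjusted p = 3.2e-07). Emetine lowered DDIT4 to 74.3 ± 4.51 CPM, against 116 ± 7.31 CPM in DMSO (SD, n = 3 each), a change of -0.64 (adjusted p = 1.78e-12) that was -0.15 and did not pass under spike-in scaling (adjusted p = 0.0734).

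SESN2, or sestrin 2, is a leucine sensor that keeps TORC1 off through the GATOR complexes when leucine is lacking. It lies at chr1:28259527-28282491 on the plus strand and shares no exon base. STM2457 raised it at 9 h, to 133 ± 4.32 CPM against 117 ± 7.07 CPM with DMSO (SD, n = 4 each), a change of 0.18 (adjusted p = 0.000137). Without emetine the values were 139 ± 6.71 CPM with STM2457 and 117 ± 3.52 CPM with DMSO (SD, n = 3 each), a change of 0.25 (adjusted p = 1.9e-06) that fell to 0.07 (adjusted p = 0.213) under ribosomal protein and 0.11 (adjusted p = 0.258) under spike-in scaling. Without siRNA in the knockdown experiment, STM2457 and DMSO libraries overlapped at 91.5 ± 3.83 and 95.2 ± 4.27 CPM (SD, n = 3 each), with a change of -0.06 (adjusted p = 0.377). With siRNA, SESN2 did rise, to 138, 140 and 132 CPM with STM2457 against 122, 117 and 120 CPM with DMSO, by 0.19 (adjusted p = 0.00684), but this was 0.00 under ribosomal protein and -0.12 under spike-in scaling. Its largest change came with emetine present: 153, 153 and 145 CPM with STM2457, against 92.3, 95.6 and 90.6 CPM with DMSO, a change of 0.69 (SE 0.04, adjusted p = 3.08e-16). siRNA raised SESN2 by 0.33 in DMSO (adjusted p = 1.2e-05) and by 0.58 under STM2457 (adjusted p = 1.29e-08), and the change in DMSO did not pass under spike-in scaling (0.36, adjusted p = 0.154). Emetine without STM2457 lowered SESN2 by 0.34 under TMM (adjusted p = 3.15e-09), whereas the change was 0.10 (adjusted p = 0.0892) and 0.14 (adjusted p = 0.0928) under the other scalings. Under STM2457 emetine raised SESN2 by 0.11 (adjusted p = 0.0144), a call lost (adjusted p = 0.0606 to 0.276) without replicate 1 or 2 of STM2457 with emetine or replicate 1 of STM2457 with DMSO.

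TRIB3, a pseudokinase that binds AKT and feeds back on ATF4 and CHOP, lies at chr20:362835-397559 on the plus strand and shares no exon base. STM2457 raised it by 0.42 to 0.57 on the log2 scale in the 3 experiments without siRNA or emetine. It had 37.5, 37.4 and 38.1 CPM with STM2457 without emetine, against 25.4 CPM in each of the 3 DMSO libraries, a change of 0.57 (adjusted p = 6.75e-10). Without siRNA in the knockdown experiment it had 37.4, 32.99 and 34.0 CPM with STM2457, against 24.2, 25.2 and 23.01 CPM with DMSO, a change of 0.53 (adjusted p = 7.98e-07), and at 9 h the change was 0.42 (adjusted p = 6.18e-07). The groups were separate in each case. Under spike-in scaling the change in the knockdown experiment was 0.16 and did not pass (adjusted p = 0.527). With siRNA the STM2457 effect was 0.25 (adjusted p = 0.0031), but 0.06 (adjusted p = 0.692) under ribosomal protein and -0.07 (adjusted p = 0.807) under spike-in scaling. siRNA raised TRIB3 in DMSO by 0.31 (adjusted p = 0.000161), which did not pass under spike-in scaling (0.34, adjusted p = 0.199), and gave 0.03 under STM2457 (adjusted p = 0.632). Emetine raised it by 0.23 without STM2457 (adjusted p = 0.00137). Under STM2457 the emetine change was -0.06 (adjusted p = 0.375), it was -0.15 (adjusted p = 0.031) without STM2457 with emetine replicate 1, and it was 0.44 and 0.47 under the other scalings.

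CHAC1 encodes a gamma-glutamylcyclotransferase that breaks down glutathione and is one of the strongest ATF4-dependent genes in many cell lines. It lies at chr15:40952962-40956519 on the plus strand and shares no exon base. STM2457 raised it in all 5 comparisons under TMM, and its calls between groups held whichever library was left out, but neither call in the knockdown experiment passed under spike-in scaling. Without emetine it had 11.97, 13.7 and 14.8 CPM with STM2457, against 6.83, 6.51 and 6.35 CPM with DMSO, a change of 1.04 (SE 0.09, adjusted p = 2.14e-11). At 9 h it had 10.3, 10.96, 12.9 and 12.6 CPM with STM2457, against 6.84, 7.67, 7.17 and 7.30 CPM with DMSO, a change of 0.69 (SE 0.08, adjusted p = 3.73e-08). Without siRNA in the knockdown experiment it had 5.72, 5.18 and 6.20 CPM with STM2457, against 3.34, 3.81 and 2.63 CPM with DMSO. The lowest STM2457 library stayed above the highest DMSO library, with a change of 0.81 (SE 0.11, adjusted p = 1.01e-05) that was 0.43 and did not pass under spike-in scaling (adjusted p = 0.118).

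YTHDF2 siRNA raised CHAC1 3.01-fold in DMSO, the largest rise of a member with siRNA. The libraries had 9.35, 10.1 and 9.96 CPM in DMSO with siRNA, against 3.34, 3.81 and 2.63 CPM in DMSO without it, a change of 1.59 (SE 0.10, adjusted p = 2.78e-10). STM2457 with siRNA gave the highest level of the knockdown experiment, at 16.1, 16.4 and 16.3 CPM. The STM2457 effect with siRNA was 0.73 (adjusted p = 3.06e-06), and 0.42 under spike-in scaling (adjusted p = 0.155). The siRNA change under STM2457 was 1.51 (adjusted p = 1.52e-10). Emetine had the opposite sign. CHAC1 had 0.913, 1.16 and 0.855 CPM in DMSO with emetine, 6.71-fold less than the 6.35 to 6.83 CPM of DMSO alone, a change of -2.75 (SE 0.15, adjusted p = 6.07e-17) that was -2.31 and -2.27 under the other scalings. The libraries with DMSO and emetine held 24 to 31 counts of CHAC1 each, and the STM2457 effect with emetine uses the same libraries. STM2457 with emetine gave 7.99, 7.35 and 7.10 CPM, 7.65-fold more than DMSO with emetine, a change of 2.94 (SE 0.15, adjusted p = 2.8e-17). Every library with STM2457 and emetine thus lay above the 6.35 to 6.83 CPM of DMSO alone, and every library with DMSO and emetine lay below it.

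ASNS, asparagine synthetase and a classical amino acid response gene, lies at chr7:97852118-97872542 on the minus strand. It was the lowest member per kb, with 2825 counts over all 32 libraries, and 44.6% of its exon bases lie under a further gene ID on the same strand, ENSG00000284707. The treatment of reads in shared bases was not given in the sources used here. Its level is therefore uncertain, and the part of the shared bases in its changes was not tested. Counts per library were 29 to 36 in DMSO with emetine and 15 to 35 in STM2457 with emetine. STM2457 gave no call in any comparison under TMM, though all 10 members were called at 9 h under ribosomal protein scaling. The values were 3.38 ± 0.664 CPM with STM2457 and 2.95 ± 0.294 CPM with DMSO at 9 h (SD, n = 4 each), and the interval of the log2 change, -0.05 to 0.47, includes both no change and a rise. Without STM2457 9 h replicate 1 the change was 0.31 (adjusted p = 0.0405). Emetine lowered ASNS: DMSO with emetine had 1.14, 1.35 and 1.03 CPM, against 2.89, 2.28 and 2.69 CPM in DMSO alone, a change of -1.16 (SE 0.22, adjusted p = 3.53e-05). Under STM2457 the emetine change was -1.55 (SE 0.23, adjusted p = 4.15e-07). In siRNA libraries ASNS was higher under STM2457, by 0.41 (adjusted p = 0.00721; 0.117 under spike-in scaling), and differed by -0.01 in DMSO (adjusted p = 0.93).

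PSAT1, phosphoserine aminotransferase of the serine synthesis pathway, lies at chr9:78297143-78330093 on the plus strand, is the second most abundant member per kb and has little spread between libraries. At 9 h it had 412, 406, 414 and 400 CPM with STM2457, against 348, 333, 342 and 337 CPM with DMSO. The groups stood well apart, with a change of 0.26 (SE 0.03, adjusted p = 1.5e-08). Without emetine the change was 0.17 (adjusted p = 0.000163) and in the knockdown experiment without siRNA 0.19 (adjusted p = 0.00875). Both are small enough to turn with the scaling, to -0.00 under ribosomal protein scaling in the first and to -0.08 and -0.19 under ribosomal protein and spike-in scaling in the second. With emetine STM2457 and DMSO libraries overlapped, at 311 ± 13.6 and 306 ± 13.6 CPM (SD, n = 3 each), and the interval of the log2 change was -0.05 to 0.10. siRNA lowered PSAT1 by 0.19 in DMSO (adjusted p = 0.00556) and by 0.27 under STM2457 (adjusted p = 0.000268), and neither passed under spike-in scaling (adjusted p = 0.556 and 0.525). Emetine lowered it to 306 CPM against 425 CPM in DMSO, by 0.48 (adjusted p = 2.38e-13), but the change was -0.04 under ribosomal protein and 0.01 under spike-in scaling, neither of which passed.

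SLC7A11, or xCT, imports cystine in exchange for glutamate and so feeds glutathione synthesis, and it is a target of NRF2 as well as of ATF4. It lies at chr4:138164097-138242349 on the minus strand, with 8.97% of its exon bases opposite SLC7A11-AS1. At 9 h it had 125, 117, 115 and 105 CPM with STM2457, against 84.3, 89.2, 84.1 and 82.6 CPM with DMSO. No libraries overlapped, with a change of 0.44 (SE 0.04, adjusted p = 7.14e-10), and without emetine the change was 0.37 (adjusted p = 1.96e-10). After 6 h in the knockdown experiment, without siRNA, it had 51.7, 43.4 and 51.1 CPM with STM2457, against 44.4, 42.4 and 39.6 CPM with DMSO. Here the libraries overlapped, and the change of 0.21 (adjusted p = 0.0324) was lost (adjusted p = 0.0573 to 0.187) without any of 7 libraries (DMSO replicates 2 and 3, STM2457 replicates 1 and 3, DMSO with siRNA replicate 1, and STM2457 with siRNA replicates 2 and 3) and turned to -0.06 and -0.17 under ribosomal protein and spike-in scaling. siRNA gave the largest fall of a member in that experiment: SLC7A11 had 12.7, 15.2 and 12.8 CPM in DMSO with siRNA, 3.10-fold below DMSO without it, a change of -1.63 (SE 0.08, adjusted p = 1.06e-11). With siRNA and STM2457 it had 24.3, 21.8 and 21.1 CPM, so that STM2457 raised it by 0.72 (SE 0.09, adjusted p = 2.97e-06). This was 0.53 and passed under ribosomal protein scaling (adjusted p = 0.00516), and 0.40 and did not pass under spike-in scaling (adjusted p = 0.155). Emetine lowered SLC7A11 to 49.96, 54.4 and 51.7 CPM in DMSO with emetine, against 88.2, 90.2 and 87.3 CPM in DMSO alone, by 0.77 (adjusted p = 9.24e-18). Under STM2457 the emetine change was -0.70 (adjusted p = 4.32e-17).

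Whether the STM2457 effect itself differed with YTHDF2 siRNA was tested as a difference of effects, for which 8.7% of all genes were called in either direction. SLC7A11, SESN2 and TRIB3 passed. STM2457 raised SLC7A11 more with siRNA than without it, by 0.51 (SE 0.12, adjusted p = 0.00815), and SESN2 by 0.25 more (adjusted p = 0.036), while the effect on TRIB3 was 0.28 smaller (adjusted p = 0.0438). None of these differences passed under ribosomal protein or spike-in scaling. SESN2 lost its call (adjusted p = 0.0556 to 0.094) without any single library except STM2457 replicates 1 and 3, DMSO replicate 3 and STM2457 with siRNA replicate 3, and TRIB3 (0.0623 to 0.163) without any except STM2457 replicates 2 and 3. For CHAC1 the difference was -0.08, with an interval of -0.36 to 0.20, and for DDIT4 0.01, with an interval of -0.43 to 0.45, so for DDIT4 these libraries could not tell even a sizeable difference from none.

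Emetine changed the STM2457 effect on 6 members, where 17.8% of all genes were called. CHAC1 stood out: its STM2457 effect was larger with emetine than without by 1.89 on the log2 scale (SE 0.19, adjusted p = 3.05e-09), and by 1.96 and 1.95 under the other scalings. SESN2 had a difference of 0.45 (SE 0.05, adjusted p = 1.77e-07), and 0.51 and 0.50 under the other scalings. The effects on DDIT4, TRIB3, PSAT1 and ATF4 were smaller with emetine, by 0.27, 0.29, 0.15 and 0.14 (adjusted p = 0.0079, 0.0125, 0.0427 and 0.0232), and none of these 4 passed under either other scaling. DDIT4 lost its call without DMSO with DMSO replicate 2 or STM2457 with DMSO replicate 3 (adjusted p = 0.0504 to 0.0691), and TRIB3 without DMSO with emetine replicate 1 or STM2457 with emetine replicate 3 (0.0517 to 0.0525). PSAT1 lost it (0.0562 to 0.18) without any except DMSO with DMSO replicate 3, DMSO with emetine replicate 1 and STM2457 with emetine replicates 1 and 2. ATF4 lost it (0.0518 to 0.0766) without any except DMSO with DMSO replicate 3, STM2457 with DMSO replicate 1, DMSO with emetine replicates 1 and 2 and STM2457 with emetine replicate 2. For SLC7A11 the difference was 0.07, with an interval of -0.04 to 0.17.

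**Figure D3:**
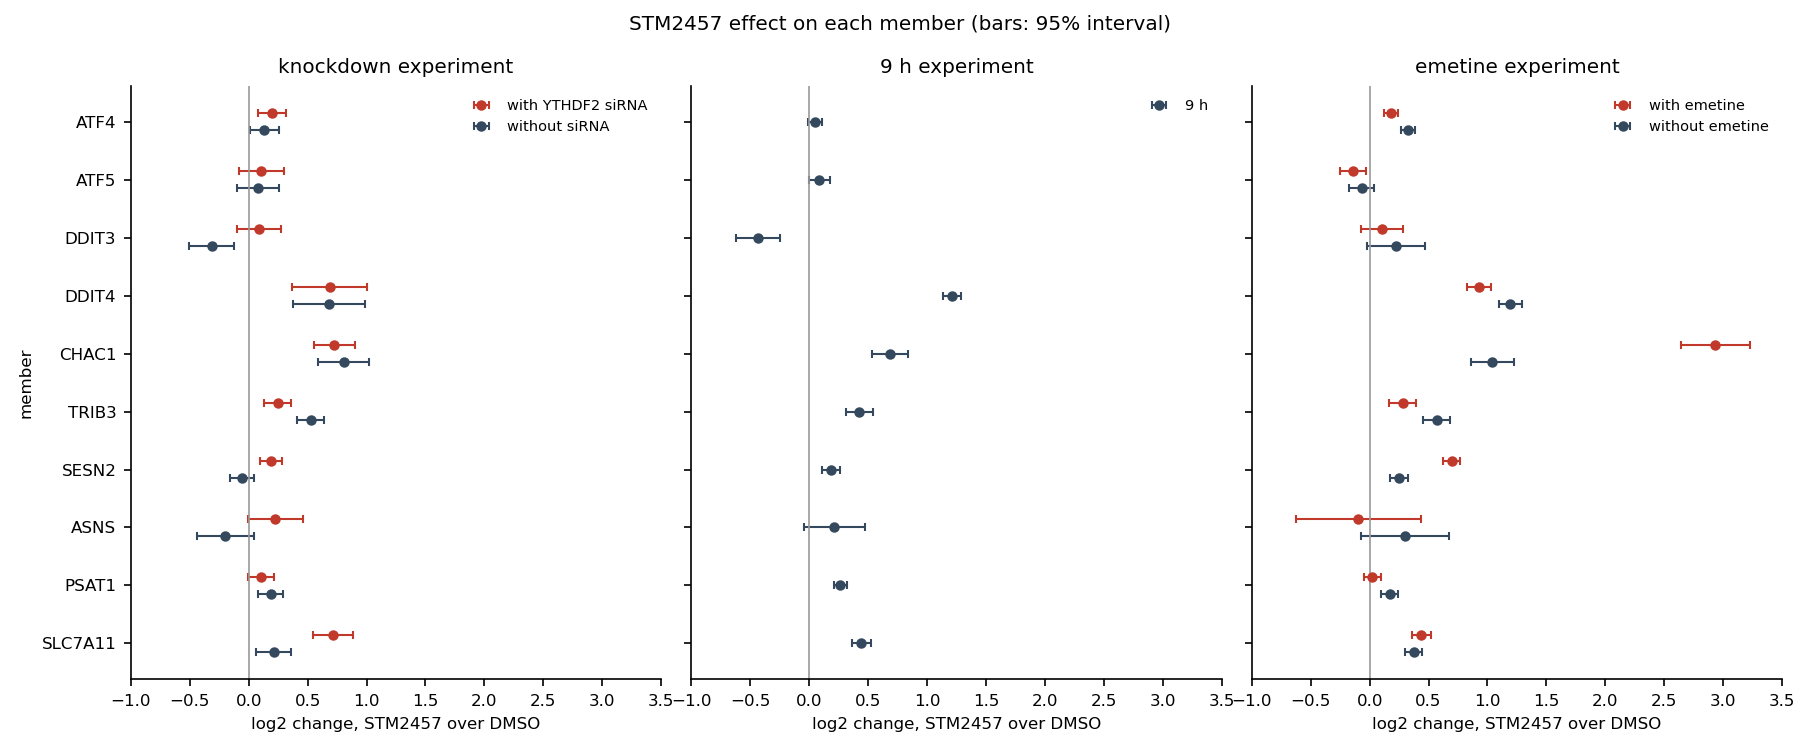
Log2 change with STM2457 over DMSO for each member, with its 95% interval, in the knockdown experiment with and without YTHDF2 siRNA, at 9 h, and in the emetine experiment with and without emetine. The red and dark points of CHAC1 in the emetine panel, 2.94 and 1.04, are the farthest apart, and those of DDIT4 in the knockdown panel, 0.69 and 0.68, lie together.

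Between 9 h and 6 h of the knockdown experiment the STM2457 effect differed for DDIT4, by 0.50 (SE 0.12, adjusted p = 0.00172), and for SESN2, by 0.20 (adjusted p = 0.0177), against 37.1% of all genes called. Under ribosomal protein scaling 8 members were called, all higher, where 9999 genes were higher and 97 lower of the 16720 tested. Among them ATF4, ATF5 and TRIB3, at -0.12, -0.03 and -0.14 under TMM with no call, turned to 0.36, 0.45 and 0.34. The call for SESN2 was lost without DMSO 6 h replicate 1 (adjusted p = 0.062). Time and experiment cannot be told apart here. Between the emetine and the knockdown experiment, both at 6 h, edgeR called none of the members and 0.843% of all genes. DDIT4 came nearest with 0.48 (adjusted p = 0.0678), and passed without DMSO 6 h replicate 1 or STM2457 6 h replicate 1 or 2 (adjusted p = 0.0182 to 0.0484), as SESN2 did without STM2457 6 h replicate 1 (adjusted p = 0.0374). In all, 4 members had an unadjusted p under 0.05, DESeq2 called 1 member, and 2 were called with no filter on low counts. The matching shares of all genes are not given, so these counts have no background beside them.

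Further genes of the pathway were grouped in lists by what they do. Over all genes tested, STM2457 raised 32.2% and lowered 32.5% at 9 h, and 26% and 21.9% without emetine. Under ribosomal protein scaling 7514 of 15834 genes rose and 2422 fell at 9 h. Without emetine that scaling gave 2200 of 15817 genes higher and 6689 lower. Counts in the lists are to be read against these backgrounds. Of 16 bZIP factors that can pair with ATF4, 13 rose and none fell with STM2457 without emetine, and 12 rose and 1 fell at 9 h. The list's median log2 change was 0.48 and 0.53 in these comparisons, where that of all genes was 0.00. Under ribosomal protein scaling 9 rose and 2 fell without emetine and 14 rose and none fell at 9 h. CEBPG, the C/EBP partner of ATF4 at many amino acid response elements, rose by 0.82 and 0.94 with and without siRNA, by 1.03 at 9 h and by 0.61 and 0.96 with and without emetine. NFE2L2, the gene of NRF2, rose by 0.51 to 0.70 in the same 5 comparisons. CEBPB, a further C/EBP partner, rose by 0.70 without emetine. In the knockdown experiment 11 of the 16 rose and none fell with siRNA and 9 rose and 1 fell without it (medians 0.44 and 0.36), but under spike-in scaling none moved with siRNA and 1 rose and 3 fell without it. Over all genes, 15.5% rose and 15.4% fell with siRNA, and 22.9% and 22.1% without it. Spike-in scaling gave 138 genes higher and 2381 lower with siRNA, and 398 and 5023 without it. YTHDF2 siRNA itself lowered 9 and raised 3 in DMSO (median -0.28), with CEBPG at -1.21 and FOSL2 at -1.09, and 3 fell and 1 rose under spike-in scaling. Over all genes siRNA lowered 29.3% and raised 33.1% in DMSO. Under ribosomal protein scaling 3996 genes fell and 4609 rose, and under spike-in scaling 2229 and 2653. Emetine raised 7 and lowered 3 (median 0.20), against 33.9% and 28.3% of all genes, with JUN at 3.29, ATF3 at 2.17 and JUND at 1.62.

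Amino acid transporters moved with the members at 9 h, where 9 of 12 rose and 1 fell with STM2457, with a median of 0.38. SLC6A9, a glycine transporter, rose by 1.00, SLC7A5, the leucine transporter LAT1, by 0.73, SLC7A1, an arginine transporter, by 0.54 and SLC1A5, a glutamine transporter, by 0.49. Without emetine 8 rose and 1 fell (median 0.28), and 6 rose and 2 fell under either other scaling. Without siRNA 4 rose and 2 fell in the knockdown experiment (median 0.10), but none rose and 5 fell under ribosomal protein scaling. Over all genes that scaling gave 1244 higher and 7378 lower there. Emetine lowered 8 and raised 2 (median -0.46), with SLC38A2 at -1.80 and SLC7A5 at -1.005, though 5 rose and 4 fell under ribosomal protein scaling. Over all genes that scaling gave 11455 higher and 408 lower with emetine.

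The enzymes of amino acid synthesis and folate metabolism had no common direction. Of 14, 4 rose and 4 fell with STM2457 without emetine (median 0.02), but none rose and 10 fell under ribosomal protein scaling. At 9 h 3 rose and 5 fell (median -0.02), but 8 rose and none fell under ribosomal protein scaling, and there ALDH1L2, a mitochondrial folate enzyme, rose by 0.37 and PHGDH, the first enzyme of serine synthesis, was lower by 0.20. Of 13 aminoacyl-tRNA synthetases and related genes, 3 rose and 8 fell at 9 h (median -0.12), with WARS1, the tryptophanyl-tRNA synthetase, at -0.40, but 5 rose and 2 fell under ribosomal protein scaling. Without emetine 2 rose and 2 fell (median -0.01), and none rose and 10 fell under ribosomal protein scaling. With siRNA in DMSO 2 rose and 8 fell (median -0.17), and 1 rose and 6 fell under ribosomal protein scaling.

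Stress effectors, a list of 26 of which 24 were tested, showed 15 higher and 3 lower with STM2457 at 9 h (median 0.18), against 32.2% and 32.5% of all genes. Without emetine 9 rose and 3 fell (median 0.14), but 5 rose and 5 fell under ribosomal protein scaling, and 5 rose and 5 fell without siRNA in the knockdown experiment (median -0.06), where 1 rose and 10 fell under ribosomal protein scaling. SQSTM1, an autophagy receptor, fell by 0.71 at 9 h and by 0.38 without emetine, and GADD45A, a growth arrest gene, by 0.52 at 9 h, while JDP2, a bZIP repressor, rose by 0.64 at 9 h. Emetine raised GADD45A by 1.78 and PPP1R15A, the eIF2 phosphatase subunit GADD34, by 1.29. Of the 21 genes of the eIF2 machinery itself, 2 rose and 13 fell at 9 h (median -0.10), but 8 rose and 6 fell under ribosomal protein scaling. Among them EIF2B3 at -0.69 and EIF2B4 at -0.59 encode subunits of the exchange factor for eIF2, and EIF2S1 at -0.46 encodes the subunit that is phosphorylated. Without emetine 6 rose and 9 fell (median -0.09), and 1 rose and 15 fell under ribosomal protein scaling. EIF2AK3, the ER stress kinase PERK, rose there by 0.36. Of 13 further TORC1 brakes, 12 of them tested, 3 rose and 5 fell without emetine (median -0.11), with DDIT4L, the paralog of DDIT4, at 0.70 and TSC1 at 0.53.

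ER chaperones and other targets of ATF6 and XBP1 mark the ER branch of stress signalling. Of 17, 10 rose and 2 fell with STM2457 without emetine (median 0.13), but 3 rose and 7 fell under ribosomal protein scaling. At 9 h 4 rose and 9 fell (median -0.10), but 8 rose and 1 fell under ribosomal protein scaling. HSPA5, the chaperone BiP, rose by 0.53 at 9 h and by 0.35 without emetine. Emetine lowered 16 of the 17 and raised none (median -0.38), HERPUD1 by 1.40 and HSPA5 by 0.70, though 7 rose and 6 fell under ribosomal protein scaling. Over all genes emetine lowered 28.3% and raised 33.9% under TMM, and 408 fell and 11455 rose under ribosomal protein scaling. Among 15 NRF2 targets, a list that includes SLC7A11, siRNA in DMSO lowered 10 and raised 4 (median -0.37), with TXNRD1 at -0.99, GCLM at -0.77 and FTH1 at -0.76, and 9 fell and 3 rose under ribosomal protein scaling. With STM2457 at 9 h 4 of the 15 rose and 7 fell (median -0.01), with GCLM, a glutathione synthesis gene, at -0.68, but 7 rose and 3 fell under ribosomal protein scaling. Of 11 glutathione and ferroptosis genes, 2 rose and 7 fell at 9 h (median -0.24), with TFRC, the transferrin receptor, at -0.66 and CHAC2, the paralog of CHAC1, at 0.45, but 4 rose and 4 fell under ribosomal protein scaling. Some genes are in 2 lists, such as CEBPB, ATF3, PPP1R15A and GCLM.

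**Figure D4:**
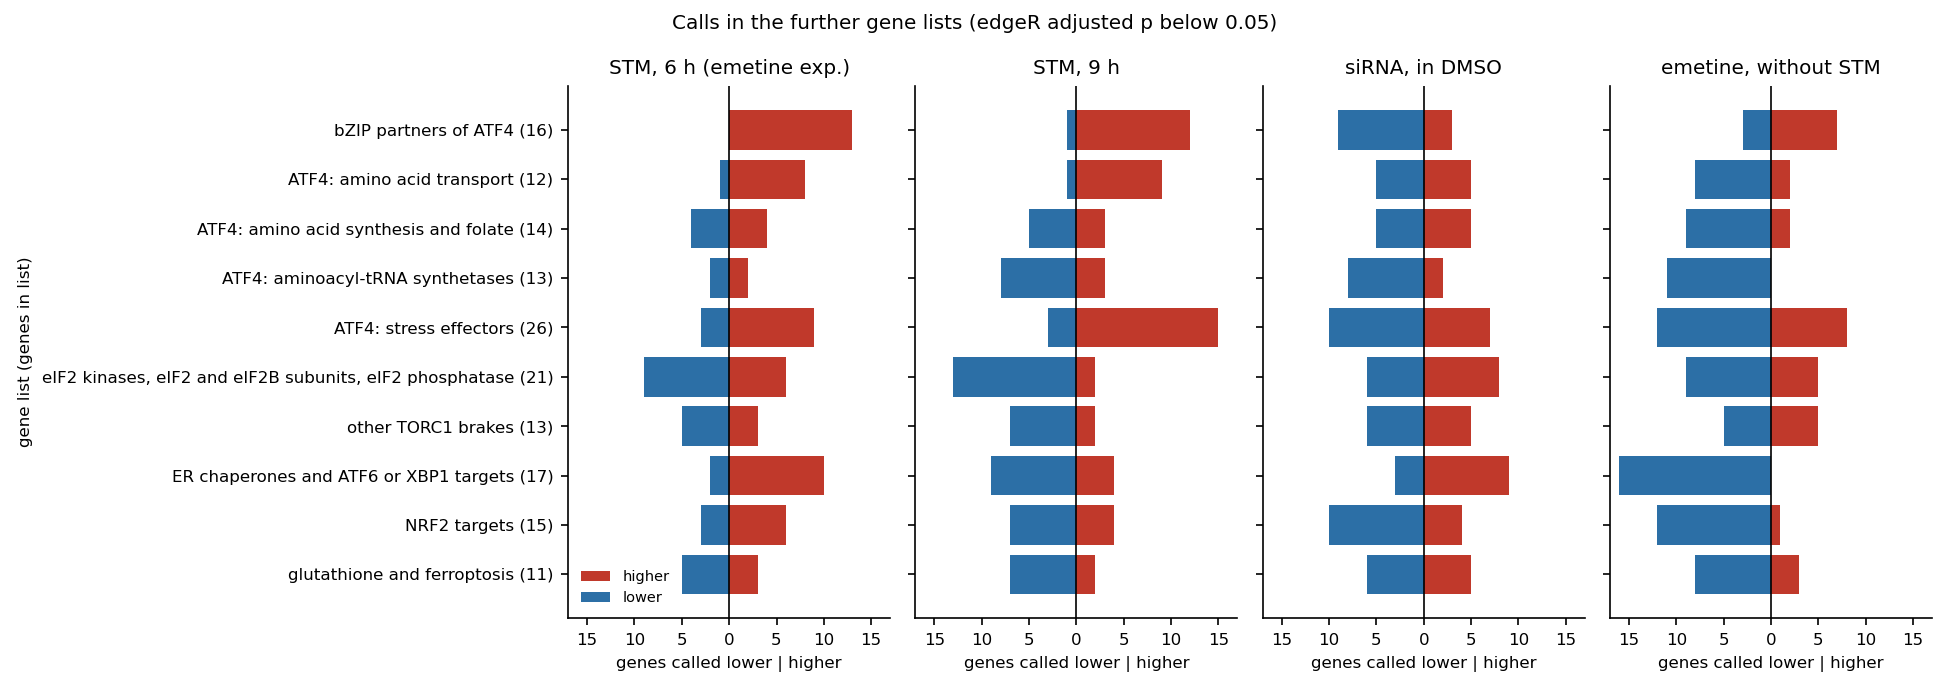
Number of genes called higher (red, to the right) and lower (blue, to the left) in each further gene list, in 4 comparisons, with the size of each list in brackets. The bZIP partners lean to the right in both STM2457 panels, with 13 higher without emetine and 12 higher at 9 h, and the ER chaperones lean to the left with emetine, with 16 lower, where ribosomal protein scaling gives 7 higher and 6 lower.

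The patterns of single members over the 10 groups were compared with those of 10819 protein coding genes, as Pearson's r of group mean log2 CPM centred within each experiment. This is a description over 10 points that share libraries. The most like gene was IST1 for ATF4 (r = 0.991), MRPS14 for ATF5 (0.988), ZNF335 for DDIT3 (0.981), ULBP3 for DDIT4 (0.993), SLC31A2 for CHAC1 (0.985), ZNF496 for TRIB3 (0.994), PRR12 for SESN2 (0.973), GPC6 for ASNS (0.987), ITGA2 for PSAT1 (0.989) and RPL22 for SLC7A11 (0.993). Members were left out of this search, so none of these could be a member. Among the members themselves the highest r was 0.923, between DDIT4 and SLC7A11, then 0.889 between CHAC1 and SESN2. The lowest was -0.90, between DDIT3 and ASNS, and ATF4 and ATF5 had -0.816.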

How the data were processed

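The deposited files hold raw read counts per Ensembl gene ID, 1 library per file, made by the authors. The submitters' processing notes name GRCh38.p12, STAR 2.7.3a, featureCounts, Subread 2.0.0, SAMtools 1.9, Trimmomatic, FastQC 0.11.8, and cutadapt 1.18 and 4.0. The annotation release, the strand setting and the treatment of shared reads were not given in the sources used here.

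Counts were tested with edgeR 4.0.16 in R 4.3.3 (TMM, filterByExpr, quasi-likelihood F test, Benjamini-Hochberg over all genes, threshold 0.05), with 1 fit for each experiment and 1 over the libraries without siRNA and emetine for differences between experiments. CPM use TMM-scaled library sizes, and 95% intervals are the log2 change ± 1.96 SE. The members, gene lists and tests were chosen with earlier results of these data known. In every comparison the 10 members are named, and from each further list at most 4 genes by smallest p. The smallest chi-square per degree of freedom between replicates was 1.79, so no library was a copy of another. Alternatives were DESeq2 1.42.0, its size factors, no filter, a replicate block, scaling to 86 ribosomal protein genes or ERCC spike-ins, and leaving out each library. The fits were tested on simulated counts. Positions come from GENCODE 29, whose ID version equals that in the files for 3 of the 10 members, and sequences from GENCODE 29 transcripts and RefSeq promoters.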

Additional observations from a re-analysis of the deposited data

Results flagged for a closer look

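A single member value was flagged within its group. DDIT4 in DMSO 9 h replicate 1 was 85.7 CPM, above the other 3 libraries of its group, which lay between 75.0 and 75.6 CPM. Such a gap was looked for in each member in DMSO 9 h and in STM2457 9 h, the groups of 4 libraries. This was the only 1 flagged in 20 cases, which reuse the same libraries. Chance gives about 5% of cases, so 1 in 20 is near what chance gives.

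STM2457 effects differed with YTHDF2 siRNA for 3 members, by a log2 difference, with minus without siRNA, of -0.28 for TRIB3, 0.25 for SESN2 and 0.51 for SLC7A11. Of all genes 8.7% were called, and none of these 3 differences passed under ribosomal protein or spike-in scaling.

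STM2457 effects differed with emetine for 6 members, where 17.8% of all genes were called. The log2 difference, with minus without emetine, was 1.89 for CHAC1, 0.45 for SESN2, -0.27 for DDIT4, -0.29 for TRIB3, -0.15 for PSAT1 and -0.14 for ATF4. Those for DDIT4, TRIB3, PSAT1 and ATF4 passed under neither ribosomal protein nor spike-in scaling. CHAC1 was at 7.48 ± 0.455 CPM in STM2457 with emetine and 0.976 ± 0.162 CPM in DMSO with emetine, and at 13.5 ± 1.42 CPM in STM2457 and 6.56 ± 0.246 CPM in DMSO (SD, n = 3 each).

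STM2457 effects at 9 h and at 6 h of the knockdown experiment differed by 0.50 for DDIT4 and 0.20 for SESN2, where time and experiment cannot be told apart. Of all genes 37.1% were called.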

How the results depend on the processing

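TMM against DESeq2's size factors, DESeq2 itself and no filter on low counts each kept between 126 and 128 of the 130 member results. The replicate block changed 2 calls, DDIT3 for siRNA under STM2457 (0.23, adjusted p = 0.0452) and SLC7A11 for 9 h minus 6 h (0.19, adjusted p = 0.0486), both gained, and changed no other call. Correlations of same-numbered libraries ran from -0.35 to 0.58, and in no pair of groups were all over 0.1, the bar set for pairing. They came nearest between STM2457 with siRNA and STM2457 without it, at 0.0845 to 0.58. The sign of a called change turned with scaling only, and the cause was not tested. Leaving out 1 library turned the sign of no called change, but did so for uncalled ones near 0, such as ASNS for STM2457 without emetine (-0.0042 to 0.41) and DDIT4 for the effect with minus without siRNA (-0.13 to 0.29). Signs turned under ribosomal protein scaling, then spike-in scaling, as follows: PSAT1 -0.0831 and -0.19 and SLC7A11 -0.0566 and -0.17 for STM2457 in the knockdown experiment, ATF5 0.27 and 0.32 and SESN2 0.10 and 0.14 for emetine without STM2457, and ATF5 0.26 and 0.30 and TRIB3 0.44 and 0.47 for emetine under STM2457. Under spike-in scaling alone ATF4 -0.10, TRIB3 -0.0668 and SESN2 -0.12 turned for STM2457 with siRNA, and PSAT1 0.0109 for emetine without STM2457. Under ribosomal protein scaling alone PSAT1 -0.0005 turned for STM2457 without emetine, and ATF4 0.36, ATF5 0.45 and TRIB3 0.34 for 9 h minus 6 h.

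Counts of members called that moved by over 1.5 times were, for STM2457 in the knockdown experiment, 1 under spike-in scaling against 6, and with siRNA 2 under ribosomal protein and 0 under spike-in scaling against 6. For siRNA in DMSO the count was 4 under spike-in scaling against 8, and for STM2457 with emetine 4 against 7. For the STM2457 effect with minus without siRNA it was 1 with no filter and 0 under either scaling against 3, and with minus without emetine 2 under either scaling against 6. For 9 h minus 6 h it was 8 under ribosomal protein scaling against 2, and for the emetine minus the knockdown experiment 1 with DESeq2 and 2 with no filter against 0. Leaving out 1 library gave 5 to 6 members for STM2457 in the knockdown experiment, 5 to 7 with siRNA, 7 to 10 at 9 h, 7 to 8 without and 6 to 7 with emetine, 8 to 9 in both siRNA comparisons, 9 to 10 and 8 to 9 for emetine without and under STM2457, 1 to 4 and 3 to 6 for the effects with minus without siRNA and emetine, 1 to 4 for 9 h minus 6 h and 0 to 2 for the emetine minus the knockdown experiment. Further calls gained without 1 library were DDIT3 for the effect with minus without siRNA (0.49, adjusted p = 0.0193 to 0.0391, without STM2457 6 h replicate 3 or DMSO with siRNA replicate 3), PSAT1 for STM2457 with siRNA (0.10, adjusted p = 0.0355, without STM2457 6 h replicate 3), and, for 9 h minus 6 h, ATF4 (-0.19, adjusted p = 0.00825, without STM2457 6 h replicate 1) and SLC7A11 (0.22 to 0.24, adjusted p = 0.0164 to 0.0417, without any of 5 libraries, DMSO 6 h replicate 3, STM2457 6 h replicates 1 and 3, DMSO 9 h replicate 2 and STM2457 9 h replicate 4). By total counts depth limits ASNS and DDIT3 most, with 2825 and 6124 counts over 32 libraries. CHAC1 was thin in DMSO with emetine, at 24 to 31 counts per library.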
